A study of Mus musculus with 2 samples.

Results

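DNAJ genes encode the J-domain proteins, also called HSP40 proteins, which hand client proteins to HSP70 chaperones. The members described here are the 45 genes whose symbol starts with Dnaja, Dnajb or Dnajc and a number, out of 53832 genes in the count table. They comprise 4 Dnaja, 13 Dnajb and 28 Dnajc genes, all annotated as protein-coding and spread over 17 chromosomes. The 3 pseudogenes that carry a DNAJ symbol were left out by the rule.

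The 2 libraries, replicates 1 and 2, form 1 group and hold polyadenylated RNA of mouse cells that the titles name small oocytes. Embryonic ovaries of females were put in culture under an added pressure of 33.3 kPa. Flow sorting then took the cells that carried a CFP reporter of Stella, which is active in the germ line. No genotype beyond the reporter, no strain and no age is given in the sources used here, and nothing there says whether the replicates came from separate cultures or animals, so the spread between them may be technical. Since pressure was applied in both libraries, DNAJ levels are given under pressure, and no effect of it can be measured.

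The libraries held 5019462 and 5274338 expected counts in replicates 1 and 2. All 8 oocyte markers, such as the germ cell helicase Ddx4, were expressed, and 17 markers of granulosa, stroma, endothelial, blood and immune cells together held 94 and 75 counts, with 4 of them expressed by the threshold used below and 8 at 0 in both libraries. In bulk RNA, fewer cells of a type and less RNA per cell cannot be told apart.

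An HSP70 protein grips and releases an unfolded stretch of its client as it cycles between ATP and ADP. The J domain makes HSP70 split its ATP and hold the client, and an exchange factor later removes the ADP so that the client is let go. Class A members have a J domain, a glycine-rich linker and a zinc finger, class B members lack the zinc finger, and class C members share only the J domain and work at particular places, such as the ribosome or the mitochondrial import channel.

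The stretches below are shown because they are the only matches to stress elements that were found among the DNAJ promoters. Promoters were taken from RefSeq on GRCm38.p6 as the 300 bases from 250 before to 50 after a start site, and 37 of the 45 members had at least 1, giving 50 promoters. Capitals mark the match to the heat shock element in Dnajb6 (chr5:29735812-29735904, plus strand) and to the endoplasmic reticulum stress element in Dnajc3 (chr14:118937787-118937885, plus strand). The first was searched as GAA, any 2 bases, TTC, any 2 bases and GAA, and the second as CCAAT, any 9 bases and CCACG.
Dnajb6: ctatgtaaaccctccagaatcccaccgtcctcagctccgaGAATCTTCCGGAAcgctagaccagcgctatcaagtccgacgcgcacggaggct
Dnajc3: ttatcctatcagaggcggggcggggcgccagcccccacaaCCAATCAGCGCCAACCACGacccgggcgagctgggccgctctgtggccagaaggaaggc

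Dnajb6 has 2 RefSeq start sites in the table used, and the match begins 46 bases before one and 127 bases before the other. GENCODE M21, whose exons were used for the levels, starts the gene farther upstream, so the match begins 164 bases inside the gene by that annotation. In Dnajc3 it begins 105 bases before the start site. Both strands were searched. The heat shock element was found in 0.603% of all 32851 promoters and the stress element in 0.119%. The CCAAT box, which the stress element contains, was found in 38.0% of the DNAJ promoters and 37.4% of all promoters, and the GC box GGGCGG in 66.0% and 35.7%. A match describes letters in this window and shows no binding of a factor. The promoters of Dnajc2, Dnajc5, Dnajc5b, Dnajc11, Dnajc12, Dnajc18, Dnajc22 and Dnajc30 were not used here.

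Most of the family was expressed. Levels are given as TPM, in which expected counts are divided by the merged exon length and then brought to the same sum in each library. A gene was taken as expressed where neither library had a TPM below 1. By this measure 38 of 45 members were expressed, against 53.5% of 21722 protein-coding genes and 25.7% of all 53579 genes with a length. The median level over all 45 members was a TPM of 31.6, against 2.57 over all protein-coding genes. On the log2(TPM + 1) scale the median of the members was 5.12 ± 0.10 (SD, n = 2). Over expressed genes only, the median TPM was 42.5 for members and 24.2 for protein-coding genes. A mean TPM of 100 or more was reached by 11 members, 10 to 100 by 20, 1 to 10 by 7, and less than 1 by 7. Together the members held 0.402% of the counts in replicate 1 (exact 95% interval 0.396 to 0.407%) and 0.393% in replicate 2 (0.387 to 0.398%), intervals that cover counting error only.

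A few genes made up most of the family's summed TPM with merged exons, the gene length used here. The 10 highest members held 63.1%, and the 3 highest, Dnaja2, Dnajb6 and Dnajc21, held 28.5%. From the fourth place, Dnajc15 at a mean TPM of 139.8, to the ninth, Dnajc7 at 123.4, no neighbour in the order differed from the next by more than the SD of that difference. Over all 38 expressed members, 19 of 37 such gaps exceeded their SD and had the same sign in both libraries.

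**Figure D1:**
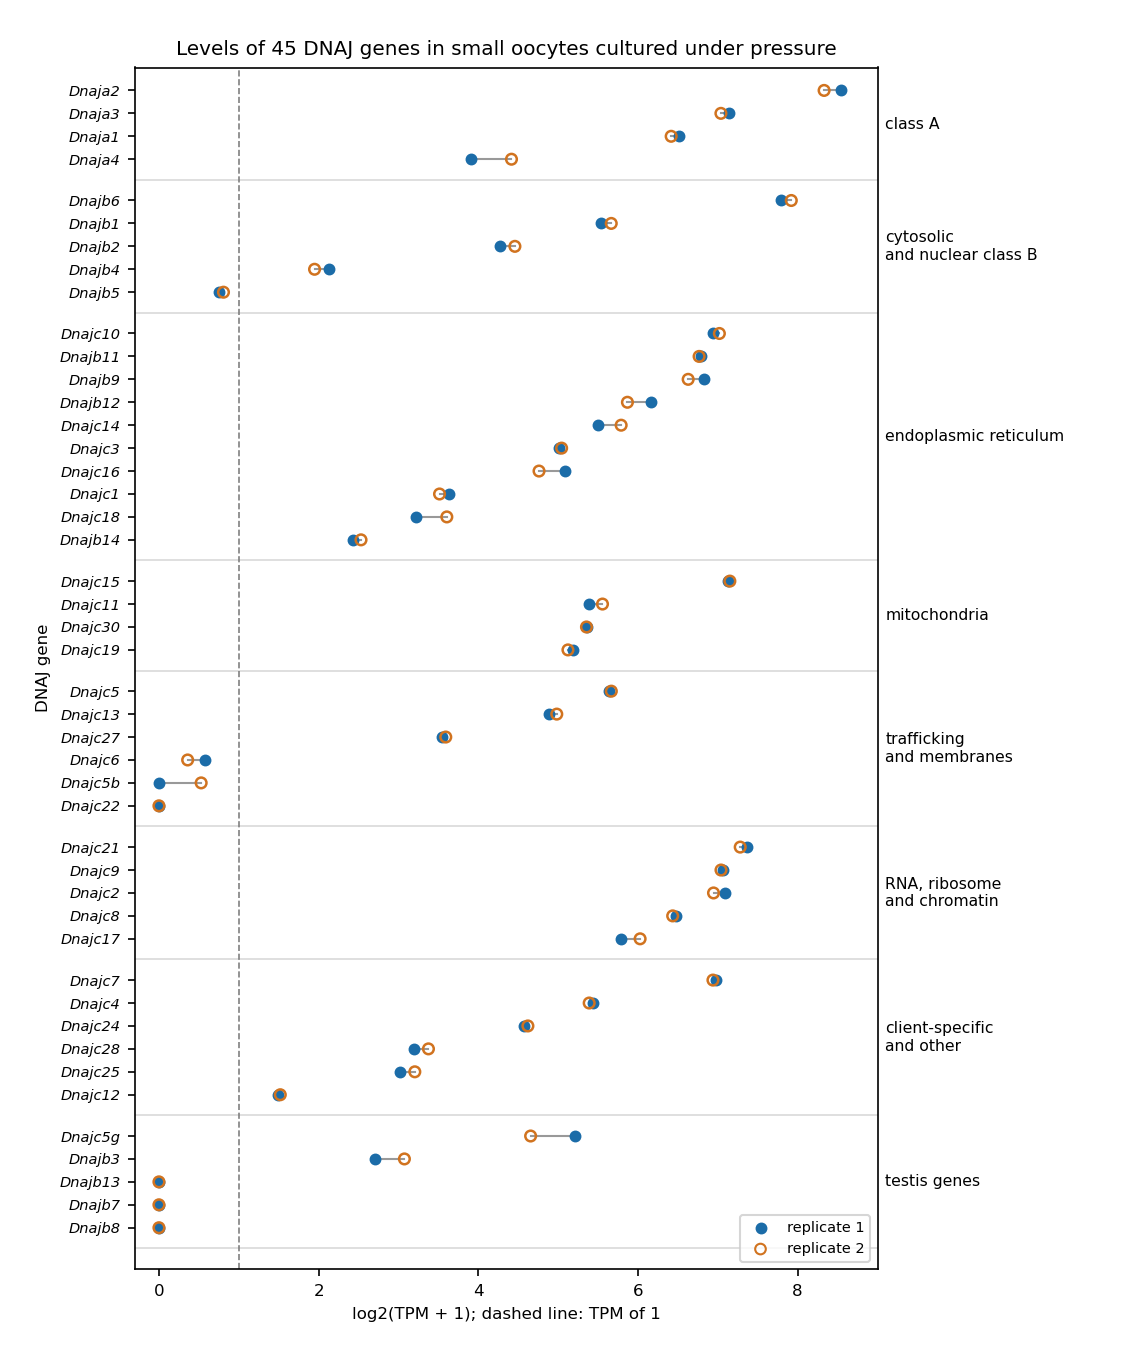
Level of each of the 45 DNAJ genes on the log2(TPM + 1) scale in replicate 1 (filled points) and replicate 2 (open points), sorted by mean level within groups of known role; the dashed line marks a TPM of 1. Members with RNA, ribosome or chromatin roles lie together at mean TPM values of 59.1 to 159, while 3 of the 6 trafficking members and 3 of the 5 testis genes lie left of the line.

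These levels depend on the gene length used, since the merged exons of several members are far longer than their main transcripts. With the longest transcript in place of merged exons, 3 of the 41 members with counts moved by more than 1.5 times, and with the shortest transcript that APPRIS, an annotation of main isoforms, marks as principal, 17 did. The second of these settings was chosen after the data had been seen. The largest shift was that of Dnajc5, at 4.69 times its level with merged exons. With the longest transcript the same 3 genes led, in the order Dnajb6, Dnaja2 and Dnajc21. With the shortest principal transcript Dnajb6 led at a TPM of 550, followed by Dnajc21 at 232, Dnajc5 at 231 and Dnaja2 at 223, and Dnajc15 stood at 92.7, in place 15. Places in the order therefore hold for merged exons unless another length is named.

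Among the class A members, the general folding co-chaperones of the cytosol and mitochondria, Dnaja2 was the highest and Dnaja4 the lowest. Dnaja2 (ENSMUSG00000031701, chromosome 8, 85537633 to 85555344 on GRCm38) had a TPM of 373 in replicate 1 and 321 in replicate 2, above 98.5% of protein-coding genes. Dnaja1 (ENSMUSG00000028410, chromosome 4, 40722150 to 40737149), a farnesylated partner of cytosolic HSP70, had 90.6 and 84.4, below Dnaja2 in both libraries.

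Dnaja1 minus Dnaja2 was -1.97 ± 0.08 on the log2(TPM + 1) scale (SD, n = 2), and it was -1.39 with the longest and -0.66 with the shortest principal transcript. The merged exons of Dnaja1 span 8629 bases, against 3376 for its shortest principal transcript. Dnaja1 also shares 10.4% of its distinct 75-base stretches with 3 processed pseudogenes, copies of its mRNA elsewhere in the genome. These were given 173 and 162 counts beside 1351 and 1306 for Dnaja1 itself, and reads of Dnaja1 and its copies may not be told apart. Such counts do not measure how uncertain the level of Dnaja1 is.

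Dnaja3, the mitochondrial class A protein, had a TPM of 140 and 130. Dnaja4 had 14.0 and 20.3, from 87 and 131 counts, and was the expressed class A gene whose libraries lay farthest apart. Dnaja1 minus Dnaja4 was 2.30 ± 0.43 on the log2 scale, and 2.66 and 2.69 with the longest and the shortest principal transcripts. The exons of Dnaja4 overlap those of Wdr61 on the opposite strand over 44.1% of their length. Wdr61 held 403 and 366 counts, and the sources used here do not say whether counting used the strand, so reads of the 2 genes may not be told apart.

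The cytosolic and nuclear class B members ranged from one of the most abundant DNAJ genes to nearly none. Dnajb6 (ENSMUSG00000029131, chromosome 5, 29735688 to 29818134), which keeps aggregation-prone proteins soluble, had a TPM of 221 and 241. It stood second in the family with merged exons, but first with the longest transcript, at 374 against 276 for Dnaja2, and with the shortest principal transcript, at 550 against 223. Its mean level was above that of 97.4% of protein-coding genes, and its promoter is the one with the heat shock element shown above.

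Dnajb6 shares 16.2% of its 75-base stretches with other genes, the largest share in the family. The 7 processed pseudogenes among them held 109 and 140 counts, against 2314 and 2624 for Dnajb6. One of these is the pseudogene that the table names Dnajb6-ps, with 56.8 and 104 counts. The copies amount to 4.70% and 5.33% of the gene's own counts in replicates 1 and 2.

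Dnajb1, the classic heat-inducible HSP40 of the cytosol, had a TPM of 45.4 and 49.7. Its close relatives were lower. Dnajb4 had 3.37 and 2.86, and Dnajb5 had 7 and 8 counts and was not expressed by the threshold with merged exons. With the shortest principal transcript Dnajb5 had a TPM of 1.11 and 1.23 and would pass it. Dnajb1 minus Dnajb4 was 3.56 ± 0.22 on the log2 scale and Dnajb1 minus Dnajb5 was 4.82 ± 0.05, and with the shortest principal transcripts they were 1.41 and 3.93. Dnajb2, which is best known from neurons, had 18.3 and 20.98, and Dnajb6 minus Dnajb2 was 3.49 ± 0.05.

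All 10 members of the endoplasmic reticulum were expressed, with a median TPM of 40.5. Dnajc10, a reductase that opens disulfide bonds, had 121 and 129. Dnajb11, which binds unfolded clients for the HSP70 of this compartment, had 109 and 108. With the shortest principal transcript Dnajb11 stood above Dnajc10, at 136 and 97.7. Dnajb9, a co-chaperone induced by the unfolded protein response that restrains the sensor IRE1, had 113 and 97.9. Dnajb9 minus Dnajb11 was -0.05 ± 0.13 on the log2 scale with opposite signs in the 2 libraries, the smallest difference among the 10 pairs compared with merged exons. It was -0.36 with the longest and -0.98 with the shortest principal transcripts.

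Dnajc3 (ENSMUSG00000022136, chromosome 14, 118937976 to 118981697), a client-holding protein of the lumen and the gene with the stress element in its promoter, had a TPM of 31.2 and 32.0. It lay below Dnajc10 by nearly the same amount in both libraries: Dnajc3 minus Dnajc10 was -1.95 ± 0.03 on the log2 scale, and -2.25 and -2.24 with the other lengths. Dnajc1, which sits near ribosomes at the membrane, had 11.4 and 10.4.

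The remaining members are set in the reticulum membrane. Dnajb12, which takes part in the degradation of membrane proteins, had a TPM of 70.5 and 57.4, and its relative Dnajb14 had 4.41 and 4.78. Dnajb12 minus Dnajb14 was 3.53 ± 0.27 on the log2 scale, 2.996 with the longest and 3.97 with the shortest principal transcripts. Dnajc14 had 44.4 and 54.3, Dnajc16 had 32.9 and 26.1, and Dnajc18 had 8.34 and 11.2. The exons of Dnajc14 overlap Ormdl2 on the opposite strand over 17.0% of their length.

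Both J proteins of the mitochondrial import motor were expressed. Dnajc15, an inner membrane protein that also restrains respiratory complex I, had a TPM of 139 and 141, and Dnajc19 had 35.5 and 33.8. Their order rests on the length: Dnajc15 minus Dnajc19 was 1.98 ± 0.07 on the log2 scale with merged exons, 1.38 with the longest transcripts and -0.52 with the shortest principal transcripts, which are 6193 and 659 bases long. No order is therefore given for this pair. Dnajc11, linked to the cristae-forming complex of the inner membrane, had 40.8 and 46.0. Dnajc30, an intronless gene whose protein serves the respiratory chain, had 40.1 and 39.9, from 115 and 119 counts. Its exon overlaps Bud23 on the opposite strand over 26.2% of its length, and Bud23 held 81 and 82 counts.

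**Figure D2:**
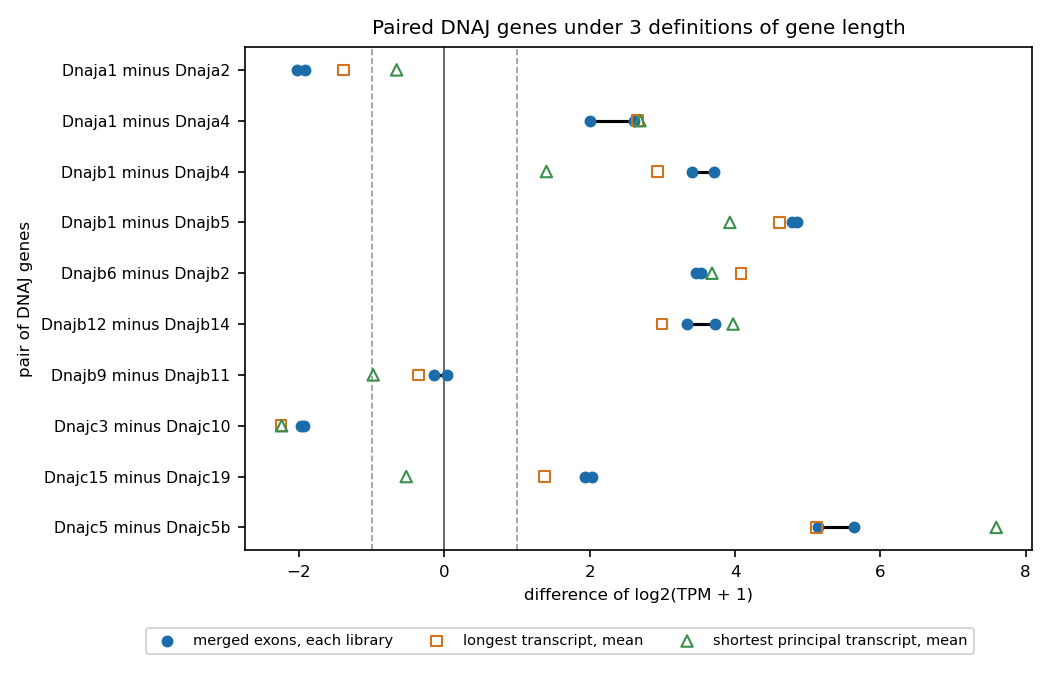
Difference of log2(TPM + 1) between the first and the second gene of 10 pairs of related DNAJ genes: filled points are the 2 libraries with merged exon length, squares and triangles the mean of both with the longest and with the shortest principal transcript; dashed lines mark a difference of 1. With merged exons 9 of 10 pairs lie beyond a dashed line in both libraries, and the point of Dnajc15 minus Dnajc19 crosses 0 with the shortest principal transcript.

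Members that work on RNA, ribosomes and chromatin were all expressed, each at a TPM above 50. The 5 had a median TPM of 129 and held 21.9% and 21.8% of the family's summed TPM. Dnajc21, which acts in the making of the large ribosomal subunit, had 164 and 154. Dnajc9, a histone co-chaperone for H3 and H4, had 133 and 131. Dnajc2, which stands at the ribosome's exit tunnel, had 135 and 122. The splicing-linked members Dnajc8 and Dnajc17 were lower: Dnajc8 had 88.4 and 85.5, and Dnajc17 had 54.0 and 64.2.

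Trafficking members split into 3 expressed and 3 not expressed. Dnajc5, the cysteine string protein that chaperones vesicle fusion proteins, had a TPM of 48.6 and 49.8, and a mean of 231 with its shortest principal transcript of 934 bases. Dnajc13, which acts in sorting at endosomes, had 28.6 and 30.6, and Dnajc27, a small GTPase with a J domain, had 10.7 and 11.1. Dnajc6, the auxilin of neurons that strips clathrin from vesicles, had 5 and 3 counts. Gak, the auxilin of other cell types and no member by its symbol, had a TPM of 48.6 and 47.2. Dnajc5b had 0 and 1 counts and Dnajc22 had none.

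The members that serve single clients or have other roles were all 6 expressed. Dnajc7, which passes clients between HSP70 and HSP90, led with a TPM of 125 and 122. Dnajc4 had 42.5 and 40.9, Dnajc24, which acts in the diphthamide modification of elongation factor 2, had 22.8 and 23.6, Dnajc28 had 8.12 and 9.38 and Dnajc25 had 7.14 and 8.22. Dnajc12, a partner of aromatic amino acid hydroxylases, was the lowest expressed member of the family at 1.81 and 1.87, from 14 and 15 counts.

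Of the 5 genes known mainly from testis, 2 were expressed in these oocytes. Dnajc5g, the gamma cysteine string protein, had a TPM of 36.1 and 24.2, from 102 and 71 counts, and its SD was 27.9% of its mean, the largest among expressed members. Dnajb3 had 5.51 and 7.42, from 10 and 14 counts. These were fewer counts than the 15 and 27 of the stroma marker Col1a1 and the 36 and 25 of the endothelial marker Pecam1. In TPM both markers were lower than Dnajb3, at 1.32 and 2.29 for Col1a1 and 3.35 and 2.24 for Pecam1. The part of other cells in the Dnajc5g and Dnajb3 counts was not tested. Dnajb7, Dnajb8 and Dnajb13, the last a protein of sperm tails, had no count in either library. At a floor of 3 counts, this leaves room for 0.598 CPM (counts scaled to the library total) in replicate 1 and 0.569 in replicate 2. In TPM the floor was 1.26 and 1.22 for Dnajb7, 1.23 and 1.18 for Dnajb8, and 0.636 and 0.612 for Dnajb13. It was 1.38 and 1.33 for the trafficking member Dnajc5b. For Dnajb7, Dnajb8 and Dnajc5b the floor lies above the threshold of 1, so their counts cannot place them below it. In the cysteine string family Dnajc5 minus Dnajc5b was 5.39 ± 0.35 on the log2 scale, a value set by the pseudocount because Dnajc5b was near 0.

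The HSP70 partners of these co-chaperones were unevenly expressed. Of 9 HSP70 genes, 6 were expressed. Hspa8, the constitutive HSP70 of the cytosol, had a TPM of 959 and 898, the mitochondrial Hspa9 had 276 and 275, and Hspa5 of the endoplasmic reticulum had 218 and 207. Among J-domain genes without a DNAJ symbol, Hscb, a co-chaperone of iron-sulphur cluster assembly, had a TPM of 125 and 161. Pam16, a partner of the mitochondrial import motor, had 77.9 and 69.1, and Sec63, which serves protein entry into the endoplasmic reticulum, had 22.99 and 23.6.

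The ratio of the DNAJ and HSP70 sums formed here differed between places in the cell. In the cytosol and nucleus, the 8 class A and B members other than Dnaja3 summed to a TPM of 767 and 741, against 1037 and 963 for 6 HSP70 genes, a ratio of 0.755 ± 0.022 (SD, n = 2). Class C members of the cytosol and nucleus are not in that sum, while the mitochondrial and reticulum sums include class C. The 5 members that work on RNA, ribosomes and chromatin alone summed to a TPM of 574 and 557. Added to the class A and B sum, they would bring it above the HSP70 sum in both libraries. The DNAJ sum below the HSP70 sum therefore rests on leaving class C out. The cytosolic ratio with all class C members was not tested. In the mitochondria, 5 members including Dnaja3 summed to 394 and 391, and their ratio to Hspa9 was 1.43 ± 0.00458. That sum was not narrowed to members whose J domain faces Hspa9. It also leaves out Hscb and Pam16, which carry no DNAJ symbol. In the endoplasmic reticulum, 10 members summed to 547 and 531, and their ratio to Hspa5 was 2.54 ± 0.04.

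Several of those 10 proteins face the cytosol with their J domain. With Dnajb9, Dnajb11, Dnajc1, Dnajc3 and Dnajc10 alone, whose J domains lie in the lumen, the ratio to Hspa5 was 1.80 ± 0.03. With class A and B members only in the cytosol and all 10 in the reticulum, the order of the 3 places was stable. With CPM and both other lengths the ratios were 0.784 to 0.916 for the cytosol and 1.35 to 1.92 for the mitochondria. They were 2.54 to 2.68 for the reticulum. The order holds for that choice of members only, and whether the cytosol keeps its place with class C members was not tested. With the lumen members alone the order of reticulum and mitochondria was not stable. Their ratio to Hspa5 was 1.71 with CPM and 1.56 with the shortest principal transcript, below the mitochondrial 1.78 and 1.92, and 1.88 with the longest transcript, above the mitochondrial 1.35. For the listed exchange factors over HSP70, Bag6 among them, the ratios were 0.971 and 1.04 in the cytosol. They were 0.906 and 0.960 in the reticulum and 0.624 and 0.638 in the mitochondria. Bag6 alone held a TPM of 164 and 167 of the cytosolic exchange factor sum of 1007 and 1002. The cytosolic ratio without Bag6 was not tested. All of these are ratios of RNA levels and say nothing of protein amounts.

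**Figure D3:**
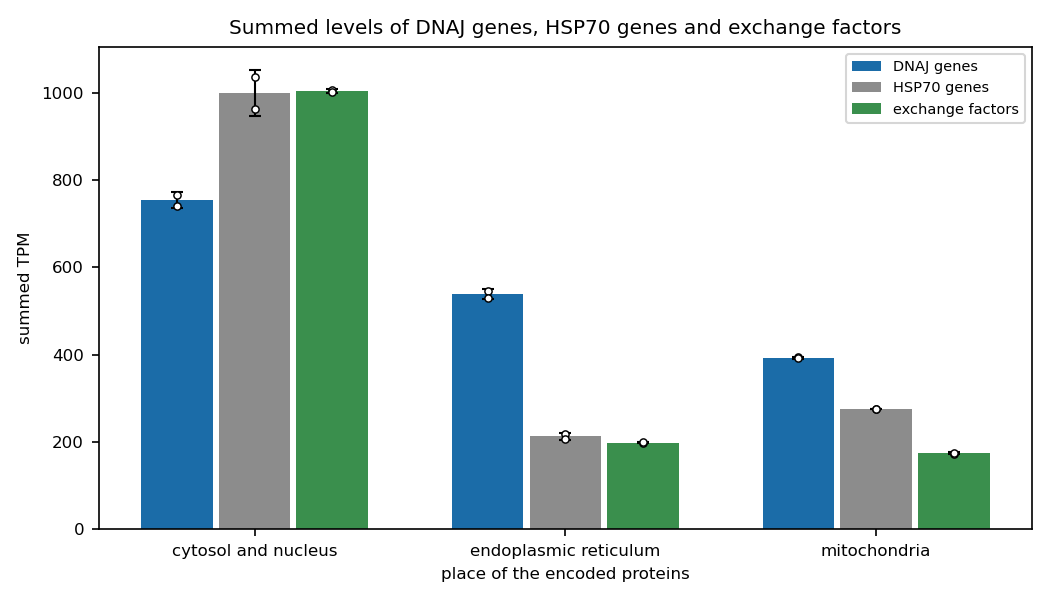
Summed TPM of DNAJ genes, HSP70 genes and listed exchange factors, Bag6 among them, for the cytosol and nucleus, the endoplasmic reticulum and the mitochondria. Bars are means of the 2 libraries, error bars the SD and points the libraries. The cytosolic DNAJ bar leaves out class C members, which the other 2 places include. With that choice the DNAJ bar lies below the HSP70 bar in the cytosol. It lies above the HSP70 bar in the other 2 places, where the ratios are 2.54 and 1.43.

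The 2 libraries gave closely similar DNAJ levels. Across the 45 members, which are not independent replicates, Spearman's rho of TPM between the libraries was 0.995, and the median SD of expressed members was 5.90% of the mean. Of the 45 members, 38 passed the filter on low counts of the edgeR function filterByExpr and were tested, and these are the same 38 that were expressed. No tested member differed by 2-fold or more at an adjusted p under 0.05 in the exact binomial test on counts, against 0.673% of all 12182 genes tested, of which 0.427% were higher and 0.246% lower in replicate 2. An unadjusted p under 0.05 was reached by 11 of 38 members, against 20.7% of all genes. With the negative binomial exact test of edgeR and a biological coefficient of variation of 0.1, 0 of 38 members reached an unadjusted p under 0.05, against 3.61% of all genes. That preset exceeds the coefficient of 7.31% estimated from the 2 libraries.

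Without a fold minimum, 4 of 38 members passed the exact binomial test with Benjamini-Hochberg adjustment over all genes, against 7.84% of all genes. Dnaja2, with 1919 and 1714 counts, was lower in replicate 2 by a log2 ratio of -0.23 (counting SE 0.05, adjusted p = 0.000123, exact binomial test). The other 3 are of the endoplasmic reticulum. Dnajc16 had 370 and 305 counts, a ratio of -0.35 (SE 0.11) and an adjusted p of 0.0321 in the exact test, and Dnajb12 had 410 and 347 counts, a ratio of -0.31 (SE 0.11) and an adjusted p of 0.0472 in the exact test. Dnajc14 went the other way, with 503 and 639 counts, a ratio of 0.28 (SE 0.09) and an adjusted p of 0.0233 in the exact test.

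The largest ratio was that of Dnajc5g at -0.59 (SE 0.22), which did not pass the test (adjusted p = 0.0776, exact binomial test). Neither SEs nor p-values here include more than counting noise. The libraries differed by more, with a chi-square per degree of freedom of 3.08 over the DNAJ genes and 3.55 over all genes tested. The 8 oocyte markers held 0.381% of the counts in replicate 1 and 0.406% in replicate 2, and the part of this shift in the DNAJ ratios was not tested. Each ratio compares these libraries, not conditions.

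**Figure D4:**
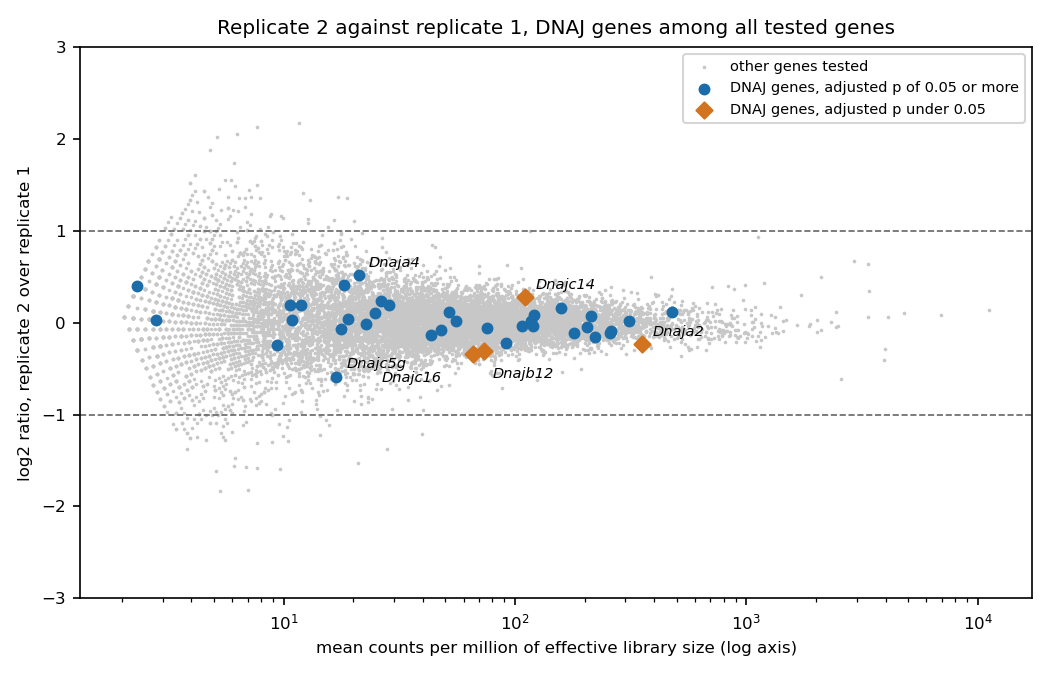
Log2 ratio of replicate 2 over replicate 1 against the mean CPM on a log axis, for 38 DNAJ genes (blue points and orange diamonds) among 12182 tested genes (grey); dashed lines mark 2-fold. All DNAJ genes lie between the dashed lines, with the largest distance from 0 for Dnajc5g at -0.59, and diamonds mark the 4 genes with an adjusted p under 0.05.

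Of the 45 members, 14 shared at least one 75-base stretch of transcript with another gene. Counts that were not whole were found for 9 members, and 7 of these shared such a stretch, while Dnajc15 and Dnajc21 did not. Among the 36 members with whole counts, 7 did. Apart from Dnajb6 and Dnaja1, processed pseudogenes sharing stretches held more than 5% of a member's counts only for Dnajb14 and, in replicate 2, Dnajc11. They held 25.97% and 21.9% for Dnajb14 and 5.59% for Dnajc11, and both members had whole counts. For Dnajb14 these counts all lay in Gm6851, which shares only 0.0127% of the member's stretches. For Dnajc11 they lay in Mdm4-ps, which shares 0.169%. Such counts do not measure how uncertain the levels of these members are.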

How the data were processed

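Libraries were directional and made from bead-captured poly(A) RNA, per the labels' protocols. The submitters' processing notes name fastp 0.20.0, STAR 2.7.7a, RSEM with no version, and build GRCm38. The authors deposited expected counts, which may be fractions of reads and carry no scaling for depth or length. Another 21 sample columns of the table belong to no sample described here and were left unused.

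Of 53832 gene IDs, 53579 matched GENCODE M21 (GRCm38). TPM used merged exon length, and logs used a pseudocount of 1. Between the libraries, counts were rounded, kept by filterByExpr (edgeR 4.0.16), scaled by TMM and compared by the exact binomial test (two-sided), adjusted by Benjamini-Hochberg over 12182 genes. Calls needed 2-fold and an adjusted p under 0.05, and log2 ratios used a prior count of 0.5. The test was checked on simulated data with counting noise alone. The libraries differed by more than that, so the check does not cover their spread. With 1 group and 2 libraries no condition was compared. Intervals and the floor of 3 counts reflect counting error alone, as PCR copies are not separate molecules. Shared sequence was searched on the sense strand of GENCODE M21 transcripts.

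The rule for named genes was every DNAJ member, with fixed lists of other J-domain, HSP70, exchange factor and marker genes; 1 listed gene is not reported here. The members, lists, pairs and role groups were chosen with earlier results of these data known. Alternatives were CPM, 2 other gene lengths, a pseudocount of 0.1, totals without mitochondrial genes, a TPM threshold of 5, DESeq2 1.42.0 size factors or library totals, no low-count filter, no fold minimum, a negative binomial test with a preset coefficient of 0.1, and each library left out.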

Additional observations from a re-analysis of the deposited data

How the results depend on the processing

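The number of expressed members, 38, was 35 at a TPM threshold of 5 and 38 or 39 under the other alternatives. The median DNAJ level, 5.12 on the log2 scale, was 5.47 with CPM, 5.01 with the longest and 4.85 with the shortest principal transcript, 5.27 with totals without mitochondrial genes and 5.44 over expressed members only. It was 5.04 without replicate 1 and 5.19 without replicate 2. The share of counts, a mean of 0.397%, was 0.411% with totals without mitochondrial genes, and 0.393% and 0.402% with either library alone. The pairs apart by at least 1 on the log2 scale, 9 of 10, numbered 8 with CPM and 7 with the shortest principal transcripts, where Dnajc15 minus Dnajc19 turned to -0.52. The members called between libraries numbered 4 without a fold minimum, in place of 0, and 0 under every other alternative run. The shortest principal transcript, the lumen-only sum and the other scalings of the DNAJ and HSP70 sums were chosen after seeing the data. No paired analysis was possible because there is 1 group. Genes with few counts, such as Dnajb3 and Dnajc12, are limited by depth.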

Other observations

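All 14 nucleotide exchange factors, which release ADP and client from HSP70 after a DNAJ protein has loaded it, were expressed, at a median TPM of 79.2. Bag1 had 349 and 348 and led the list, followed by the HSP110 protein Hspa4 with 191 and 199 and by Bag6, which guards membrane proteins on their way to the reticulum, with 164 and 167. Bag3, a heat-inducible factor of selective autophagy, had 5.42 and 5.22, and Bag2 had 3.60 and 3.46. Grpel1 of the mitochondria had 97.3 and 95.1. In the endoplasmic reticulum Sil1 had 115 and 120 and Hyou1 had 82.4 and 79.2. The stress-inducible HSP70 gene Hspa1b had 21.8 counts in replicate 1 and 0 in replicate 2, beside 3.16 and 5.67 for its near-identical paralogue Hspa1a, so how the counts fall between them is uncertain.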
